A study of Mus musculus with 4 samples.

Results

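The genes described here build the extracellular matrix of the mouse aorta: 38 genes for collagens, elastic fibre proteins, the enzymes that cross-link them, small proteoglycans and a few matrix-binding proteins. They were named as a list by function and looked up by gene symbol among the 32285 features of each matrix, and all 38 were found. Their level was read in single cells of dissociated aorta, as counts of unique molecular identifiers (UMIs), each of which stands for 1 captured RNA molecule. There were 4 libraries, 1 per group: WT mice on normal diet, LysM-DKO mice on normal diet, WT/ApoE-/- mice on western diet and LysM-DKO/ApoE-/- mice on western diet. Every run of 4 values below keeps this order. The labels do not spell out DKO; the title of the series names epsins, endocytic adaptor proteins, and LysM is a promoter used to drive deletion in myeloid cells, not in the smooth muscle cells and fibroblasts that make most of the matrix. The labels do not say how many animals were in a library, so the variation between animals is not known and no test between groups was made.

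Diet and the ApoE genotype differed together between these groups, and so did the sex of the cells. Xist, an RNA of the inactive X chromosome, was at 950.3, 949.7, 0.636 and 0.563 CPM (UMIs of the gene per 1000000 UMIs of the barcodes summed) over all kept barcodes, and the Y-linked gene Ddx3y at 0, 0, 117 and 124 CPM. Per the file headers, the software was Cell Ranger 6.0.1 on normal diet and Cell Ranger 6.1.2 on western diet. Diet, ApoE genotype, sex and software version cannot be told apart in any western-to-normal comparison below. Apoe itself was at 549, 946, 4.47 and 1.92 CPM. In macrophage barcodes the epsin genes Epn1 and Epn2 held 39, 60, 205 and 30 UMIs and 17, 37, 130 and 11 UMIs, and 3' counts of this kind need not cover a deleted part, so they are no check of the LysM-DKO label. Barcodes of 1000 UMIs or more, with mitochondrial UMIs at 10% or less, numbered 7758, 8230, 13744 and 8133, with median UMIs of 4167, 3404, 2103 and 6761. Between 9 and 41 barcode sequences were shared by a pair of libraries, at most 0.528% of the smaller one.

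Fibrillar collagens give the vessel wall its tensile strength, and elastic fibres, made of elastin on a scaffold of fibrillin microfibrils and fibulins, let it recoil. Collagen IV and collagen XVIII belong to the basement membrane around each smooth muscle cell, small leucine-rich proteoglycans bind fibrils and set their spacing, and lysyl oxidases cross-link collagen and elastin. In the aorta smooth muscle cells of the media and fibroblasts of the adventitia are the known sources, and in atherosclerosis smooth muscle cells that lose contractile genes take part in forming the fibrous cap and cartilage-like tissue of the plaque.

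Promoter windows from RefSeq on GRCm38.p6, from 250 bases before to 50 bases after a start site, were found for 28 of the 38 genes. Col4a1 and Col4a2 are shown because they lie head to head on chromosome 8 and were both higher on western diet in smooth muscle barcodes of each genotype, as given further on. Their windows are chr8:11312777-11313076 on the minus strand and chr8:11312555-11312854 on the plus strand, with start sites 21 bases apart, so that 78 bases are the same DNA read on opposite strands. Col1a2, at chr6:4505368-4505667, and Col3a1, at chr1:45311288-45311587, both on the plus strand, are shown as 2 of the fibrillar chains with the most UMIs. Capitals mark matches to the CCAAT motif, the GGGCGG motif or the TATAAA motif, each read on both strands, and no matches overlapped in these windows.
Col4a1: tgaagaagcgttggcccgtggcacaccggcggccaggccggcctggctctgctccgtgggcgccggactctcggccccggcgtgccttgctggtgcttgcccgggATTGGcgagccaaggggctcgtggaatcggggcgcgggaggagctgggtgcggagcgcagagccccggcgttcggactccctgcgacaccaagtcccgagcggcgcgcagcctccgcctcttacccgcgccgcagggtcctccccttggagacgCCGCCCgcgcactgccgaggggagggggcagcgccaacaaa
Col4a2: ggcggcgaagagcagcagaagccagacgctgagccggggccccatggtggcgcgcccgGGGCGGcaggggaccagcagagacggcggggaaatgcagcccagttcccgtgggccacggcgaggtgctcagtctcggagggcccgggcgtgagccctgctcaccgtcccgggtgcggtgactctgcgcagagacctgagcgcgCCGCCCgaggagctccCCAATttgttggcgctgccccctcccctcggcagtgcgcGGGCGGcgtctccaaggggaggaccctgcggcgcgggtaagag
Col1a2: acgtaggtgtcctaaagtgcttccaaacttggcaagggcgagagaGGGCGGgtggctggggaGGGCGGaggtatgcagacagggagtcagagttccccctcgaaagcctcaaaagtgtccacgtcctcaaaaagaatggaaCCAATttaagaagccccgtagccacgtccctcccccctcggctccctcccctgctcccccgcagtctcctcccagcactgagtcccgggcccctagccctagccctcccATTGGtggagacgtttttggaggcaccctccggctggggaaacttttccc
Col3a1: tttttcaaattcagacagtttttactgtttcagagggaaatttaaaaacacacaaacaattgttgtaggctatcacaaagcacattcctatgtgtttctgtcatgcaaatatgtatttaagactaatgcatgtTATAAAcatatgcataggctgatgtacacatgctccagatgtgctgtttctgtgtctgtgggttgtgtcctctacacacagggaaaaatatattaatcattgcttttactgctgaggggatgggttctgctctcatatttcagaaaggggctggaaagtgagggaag
Of 32851 windows of all genes, 37.4% held the CCAAT motif, 35.7% the GGGCGG motif and 13.6% the TATAAA motif, on either strand. Of the 36 windows of these 28 genes, 33.3%, 61.1% and 8.33% did. The Col3a1 window held the TATAAA motif and neither of the others, while the Col1a2 window and both collagen IV windows held the other two. A match is a description of letters and does not show a site in use.

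Each barcode was put in the first class it met. The thresholds were at least 5 UMIs of C1qa, C1qb and C1qc (macrophage), at least 2 of Pecam1 and Cdh5, at least 5 of Col2a1, Cytl1 and Ibsp, at least 3 of Pdgfra and Serpinf1 (fibroblast), at least 3 of Myh11 and Cnn1 (smooth muscle), and at least 2 of Lum. Smooth muscle barcodes numbered 4545, 4571, 8297 and 6602, and their marker sum over Acta2, Tagln, Myl9, Smtn, Lmod1 and Mylk was 27741, 23434, 34929 and 38062 CPM. Fibroblast barcodes numbered 597, 715, 539 and 536, with 28248, 22923, 12709 and 17907 CPM of 6 fibroblast markers, and 238, 315, 189 and 148 of them also met the smooth muscle threshold. The markers of both names were present. Macrophage barcodes, which also keep a cell type name, held 5627, 2998, 6304 and 3226 CPM of 6 macrophage markers. Smooth muscle markers summed to 4356, 4579, 8383 and 4979 CPM in them, more than the macrophage markers in all libraries but WT on normal diet. The other 3 classes are called by their rule genes. Most Pecam1/Cdh5 barcodes (623 of 798, 685 of 981, 322 of 426 and 347 of 417) also met the smooth muscle threshold, and 6 endothelial markers summed to 519, 728, 164 and 255 CPM there beside 23462, 18089, 17132 and 22540.0 CPM of smooth muscle markers. Cytl1/Col2a1/Ibsp barcodes numbered 65, 103, 1106 and 213. On normal diet they held 0 and 41 UMIs of the cartilage collagen gene Col2a1, with fibroblast markers at 21861 and 16179 CPM, whereas on western diet Col2a1 was at 8212 and 7509 CPM. The 6 chondrocyte markers summed to 423, 924, 2928 and 2971 CPM in this class. Barcodes of the Lum class numbered 92, 142, 1046 and 76, and their fibroblast marker sum was 30365, 19643, 8171 and 13808 CPM. Barcodes of no class with at least 3 UMIs of 6 lymphocyte genes, 556, 505, 531 and 25 of them, served as a reference for free RNA, since lymphocytes should lack the matrix genes. They had to be under every class threshold, so barcodes with much free RNA of wall cells were left out of the reference, and it can lie too low.

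The 38 genes together gave 1.15, 1.27, 2.32 and 1.77% of all UMIs of kept barcodes, and they were high in the wall cells and low in immune cells. In smooth muscle barcodes their share was 1.17, 1.18, 1.91 and 1.55%. Fibroblast barcodes held 2.08, 2.65, 3.68 and 2.82%, more than smooth muscle in each library. Cytl1/Col2a1/Ibsp barcodes held 1.62, 2.01, 5.71 and 5.89% and the Lum class 1.29, 1.68, 2.74 and 4.43%. Both classes stood above smooth muscle in all 4 libraries, by most on western diet. Macrophage barcodes held 0.258, 0.322, 0.850 and 0.387% and the lymphocyte reference 0.199, 0.277, 0.157 and 0.157%. Smooth muscle barcodes, the most numerous class, held 67.8, 55.2, 49.7 and 73.3% of all UMIs of the 38 genes. The Cytl1/Col2a1/Ibsp class held 24.7% of them in WT/ApoE-/- on western diet, from 1106 barcodes, and 1.33 to 11.0% in the other libraries.

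**Figure D1:**
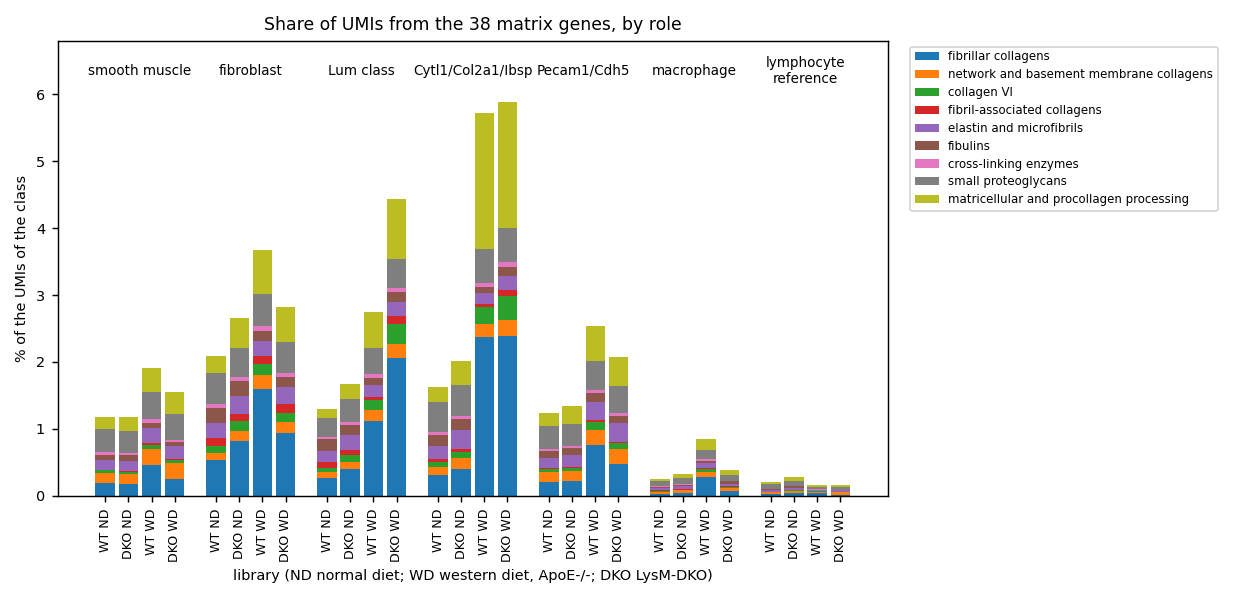
Share of all UMIs of a class that came from the 38 matrix genes, stacked by 9 roles, in % on the vertical axis, with 1 bar per library and class. The bars reach 5.71 and 5.89% in Cytl1/Col2a1/Ibsp barcodes on western diet, against 1.17 to 1.91% in smooth muscle barcodes and at most 0.277% in the lymphocyte reference.

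The lymphocyte reference gives a floor for these levels that can be too low, so the counts of genes above it can be too high. In smooth muscle barcodes 36, 35, 37 and 26 of the 38 genes were above the lymphocyte reference, and in fibroblast barcodes 37, 37, 37 and 33. A gene counted as above where its counting interval lay over that of the reference. The share of all genes above the reference was not computed, so these counts and those of macrophages below are not read as particular to the matrix genes. Col11a1 was not above the reference in any of these. The reference of LysM-DKO/ApoE-/- held only 25 barcodes, where 0 UMIs allow up to 48.9 CPM, so low genes could not be placed there. In macrophage barcodes 5, 1, 35 and 6 genes were above it, and 52 of 92, 128 of 208, 393 of 939 and 46 of 135 macrophage barcodes also met the smooth muscle threshold. Macrophage barcodes under that threshold held 0.214, 0.222, 0.446 and 0.374% of their UMIs in the 38 genes. The part of free RNA and of doublets in the macrophage levels was not tested.

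The classes differed in which matrix genes they held. Fibroblast over smooth muscle, 17 of 37 genes were at least 2-fold higher in all 4 libraries and 1 was at least 2-fold lower, where 5.22% and 3.51% of 11651 genes were. The 17 were Col1a1, Col1a2, Col3a1, Col6a1, Col6a3, Col12a1, Col14a1, Col16a1, Fbn1, Fbln1, Fbln2, Efemp1, Mfap2, Mfap5, Loxl2, Fmod and Pcolce. The gene lower in fibroblasts was Col18a1. In WT on normal diet the highest level of 25 of the 38 genes was in fibroblast barcodes, and of 3, Col18a1, Eln and Postn, in smooth muscle barcodes. On western diet the Cytl1/Col2a1/Ibsp class was highest for 15 genes in each genotype. Fibroblast barcodes were highest for as many, 15, in WT/ApoE-/- and for 11 in LysM-DKO/ApoE-/-, where the Lum class was highest for 8. The share of all genes with their highest level in a given class was not computed. Within each western diet library the Lum class was at least 2-fold above smooth muscle for 14 of 37 genes and below for 3 (Col18a1, Mfap4 and Ogn), beside 4.54% and 4.04% of 12067 genes. The 14 were Col1a1, Col1a2, Col3a1, Col5a2, Col6a1, Col6a3, Col8a1, Col12a1, Col16a1, Fbln1, Fbln2, Efemp1, Fmod and Pcolce. The Cytl1/Col2a1/Ibsp class was above smooth muscle for 15 of 38 genes and below for 2 (Col18a1 and Mfap4), beside 4.70% and 3.72% of 12250 genes. The 15 were Col1a1, Col1a2, Col5a1, Col5a2, Col6a1, Col6a2, Col6a3, Col8a1, Col11a1, Col12a1, Col16a1, Lox, Fmod, Sparc and Pcolce. The medians of fibroblast over smooth muscle were 1.20, 1.88, 1.14 and 1.10. Pecam1/Cdh5 barcodes had a mean median of 0.39 over smooth muscle, which was -1.12 without barcodes that met more than 1 class and -0.52 after thinning, so no direction is read from it.

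**Figure D2:**
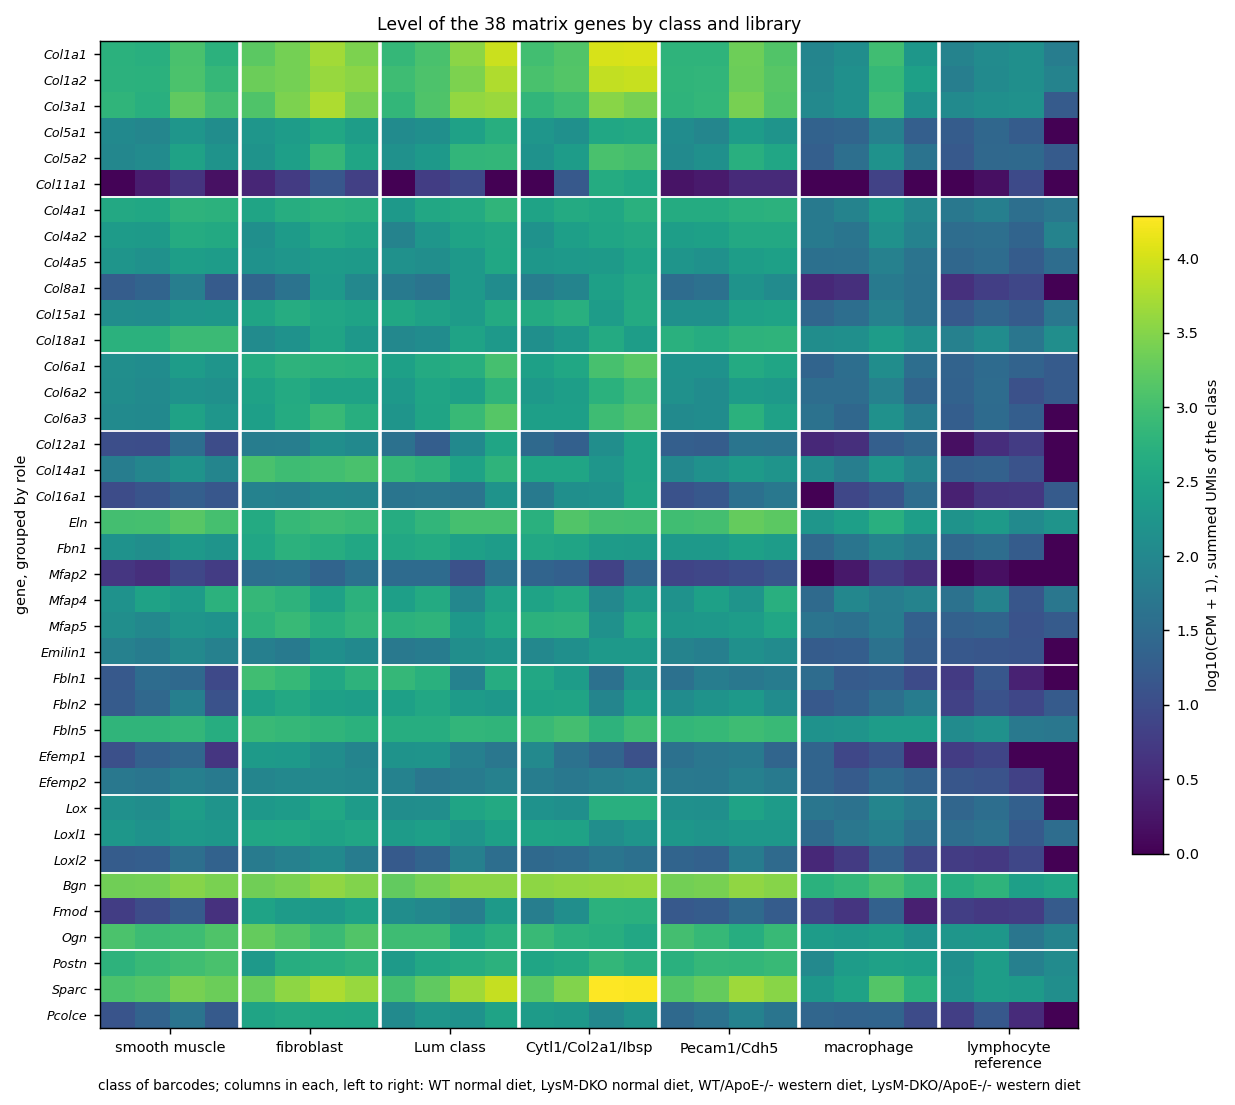
Level of each of the 38 genes, grouped by role on the vertical axis, in each class and library, as log10 of CPM plus 1. The brightest cells are Sparc and Col1a1 in the Cytl1/Col2a1/Ibsp class on western diet (Sparc 19444 and 18160 CPM), and the lymphocyte reference columns are the darkest.

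The groups allow the LysM-DKO genotype to be compared on each diet, and western diet with ApoE loss in each genotype. In smooth muscle barcodes on normal diet the matrix genes of LysM-DKO and WT lay close together, and on western diet most were lower in LysM-DKO/ApoE-/- than in WT/ApoE-/-. Ratios are log2 of CPM with exact binomial 95% intervals, which cover counting error only, and genes with at least 50 UMIs over both sums entered. For a median over genes, the brackets give the median of the lower limits and the median of the upper limits of the single genes. They are not a 95% interval for the median. On normal diet the median over 37 genes was -0.05 (-0.10 to 0.01). Only Fbln1 was at least 2-fold higher in LysM-DKO and none was 2-fold lower, beside 5.00% and 0.662% of 13889 genes. On western diet the median over 38 genes was -0.50 (-0.54 to -0.43), with 34 below 0. Mfap4 was at least 2-fold higher and 9 genes were at least 2-fold lower, beside 1.26% and 7.55% of 13823 genes. Those 9 were Col1a1, Col8a1, Col11a1, Col12a1, Fbln1, Fbln2, Efemp1, Fmod and Pcolce. All but Col1a1 are among the 12 genes that were not above the lymphocyte reference in LysM-DKO/ApoE-/-. In both comparisons the median over all genes was near 0, at 0.01 and -0.01.

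Of the 9 genes 2-fold lower in LysM-DKO/ApoE-/-, 7 were also higher in smooth muscle barcodes that held Lum. Lum is a gene of fibroblasts and of smooth muscle cells with reduced contractile genes. At least 2 Lum UMIs were seen in 2.13, 2.997, 39.1 and 2.27% of smooth muscle barcodes. Macrophages should lack Lum, but macrophage barcodes also held smooth muscle markers. In these barcodes, classed before Lum was read, the shares were 1.09, 5.77, 27.8 and 1.48%. Median UMIs were 5318, 3676, 2218 and 6961 in smooth muscle and 4708, 4715, 2796 and 4025 in macrophage barcodes. In LysM-DKO on normal diet the smooth muscle share was thus not above that of macrophages, and the part of free RNA and of doublets in these shares was not tested. With each barcode thinned to 1000 UMIs the shares were 0.660, 0.766, 28.4 and 0.939%, so the WT/ApoE-/- library was highest at equal depth too. Smooth muscle barcodes with at least 2 Lum UMIs were over 2-fold above the others in all 4 libraries for 8 of 37 genes, beside 1.40% of 11314 genes, and below for none, beside 0.0884%. The 8 were Col8a1, Col12a1, Fbln1, Fbln2, Efemp1, Mfap2, Fmod and Pcolce, and 7 of them, all but Mfap2, are among the 9 genes above. The same overlap over all genes was not computed, so it is not read as particular to the matrix genes. All 8 but Col8a1 are also among the 17 genes higher in fibroblast barcodes. Barcodes with at least 2 Lum UMIs held 9090, 8480, 3761 and 4140 CPM of 6 fibroblast markers. The 6 markers of modulated cells listed below summed to 1440, 886, 7079 and 4009 CPM in them. Fibroblast markers were thus the higher sum on normal diet and markers of modulated cells in WT/ApoE-/-, so these barcodes were not alike across libraries. The part of the Lum barcodes in the genotype ratios was not tested. In smooth muscle barcodes with under 2 Lum UMIs the western diet median was -0.23 (-0.35 to -0.16), with 6 genes 2-fold lower and 1 higher. Of all genes there, 657 of 13343 were 2-fold lower and 149 higher. On normal diet the median without the Lum barcodes was again -0.05, but 3 of 37 genes, Fbln1, Efemp1 and Fmod, were then 2-fold higher in LysM-DKO. Of all genes there, 674 of 13806 were 2-fold higher and 92 lower. The western diet medians with and without the Lum barcodes thus differ in size, and both stand below 0.

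Western diet with ApoE loss went with higher matrix levels in WT smooth muscle barcodes and with a smaller difference in LysM-DKO. In WT the median over 38 genes was 0.88 (0.73 to 0.94), and 37 of them were above 0. At least 2-fold higher were 16 genes and lower none, beside 4.59% and 9.67% of 13871 genes. The 16 were Col1a1, Col1a2, Col3a1, Col5a2, Col11a1, Col6a3, Col8a1, Col12a1, Col14a1, Col16a1, Fbln2, Efemp1, Loxl2, Fmod, Sparc and Pcolce. Among barcodes with under 2 Lum UMIs the median was 0.56 (0.49 to 0.65) and 3 genes, Col11a1, Col14a1 and Pcolce, were 2-fold higher. Of all genes there, 394 of 13404 were 2-fold higher and 1347 lower. Col11a1 was not above the lymphocyte reference in any library, here or over all smooth muscle barcodes. In LysM-DKO the median was 0.34 (0.26 to 0.41), no gene was 2-fold higher and 5 were 2-fold lower, beside 3.32% and 16.1% of 14134 genes. The 5 were Col11a1, Fbln1, Fbln2, Efemp1 and Fmod, and none of them was above the lymphocyte reference in LysM-DKO/ApoE-/-. With each barcode thinned to 1000 UMIs this last median was -0.04, where 3319, 2961, 7552 and 6377 barcodes were classed as smooth muscle on the thinned counts. Depth and class membership differed together there. The 6 markers of modulated cells fixed for checking (Vcam1, Spp1, Ly6a, Tnfrsf11b, Lgals3 and Timp1) summed to 177, 293, 3047 and 281 CPM and 6 fibroblast markers to 869, 1169, 1794 and 641 CPM in smooth muscle barcodes. None of these 12 was at 0 in any library, and both sums were highest in WT/ApoE-/-. Hemoglobin genes summed to 12236, 18530.2, 484 and 71.2 CPM there. The part of any of these in the matrix ratios was not tested.

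**Figure D3:**
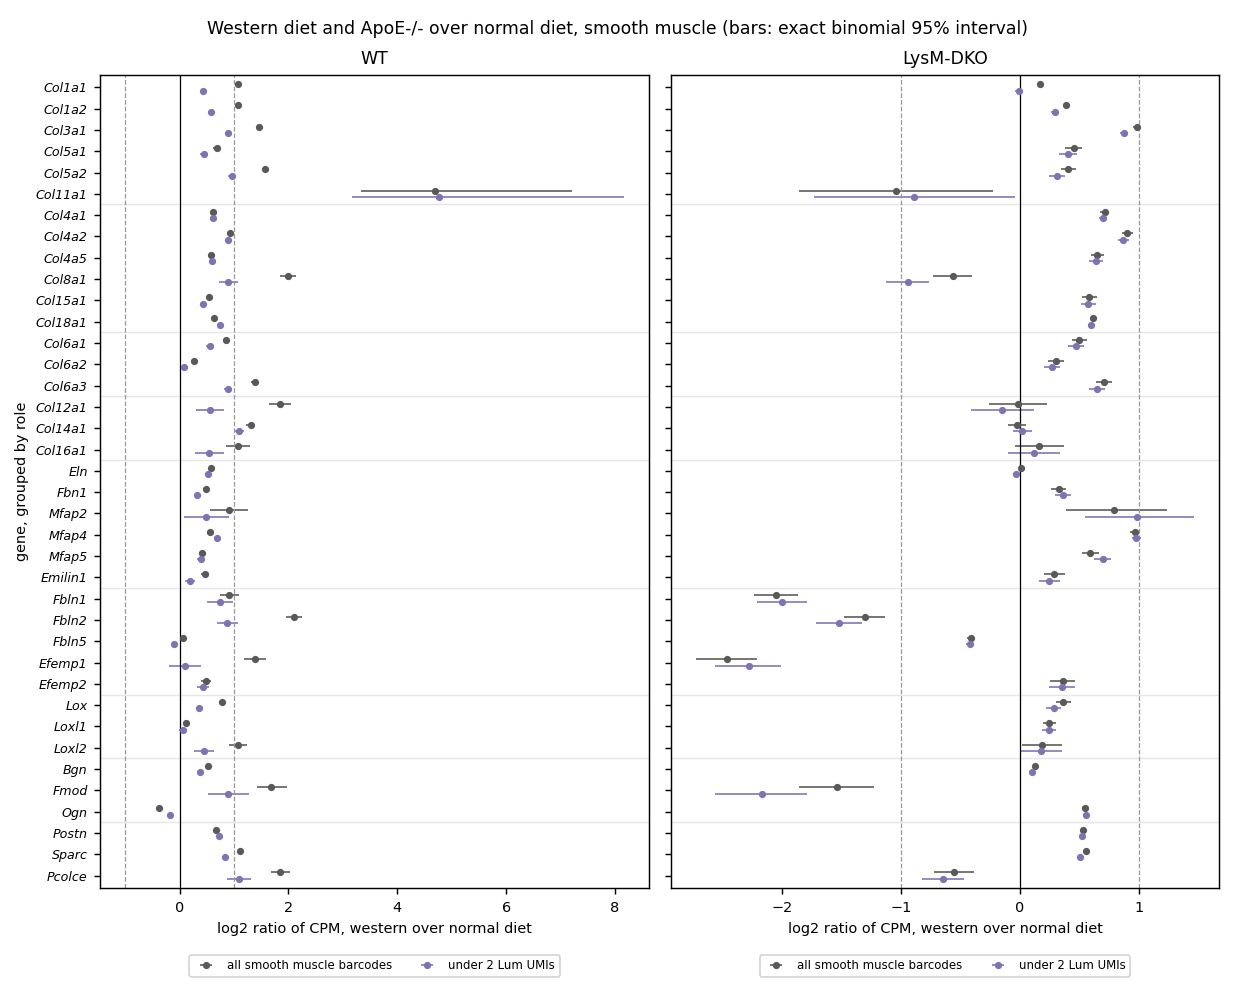
Log2 ratio of CPM, western diet and ApoE-/- over normal diet, in smooth muscle barcodes of WT (left) and LysM-DKO (right), for all barcodes (grey) and those with under 2 Lum UMIs (purple), with exact binomial 95% intervals and dashed lines at 2-fold. In WT the grey points lie to the right of 0 except Ogn, and the purple points lie closer to 0 for most genes (medians 0.88 and 0.56).

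In fibroblast barcodes the matrix genes of LysM-DKO were mostly higher than those of WT on normal diet and mostly lower on western diet, a difference between the diets that was not tested. On normal diet the LysM-DKO to WT median over 37 genes was 0.32 (0.18 to 0.49), with Col3a1 and Postn at least 2-fold higher and none lower, beside 1.43% and 0.732% of 9014 genes. On western diet the median over 38 genes was -0.20 (-0.33 to -0.10). Mfap4 was at least 2-fold higher, and Col3a1, Col5a2, Col8a1 and Col11a1 were at least 2-fold lower, beside 1.65% and 2.49% of 8865 genes. Col11a1 was not above the lymphocyte reference in fibroblast barcodes of either library. Western against normal diet, the WT median was 0.57 (0.39 to 0.73) over 37 genes, with 12 at least 2-fold higher (Col1a1, Col1a2, Col3a1, Col4a2, Col5a2, Col6a3, Col8a1, Col12a1, Col18a1, Eln, Postn and Sparc) and Fbln1, Mfap4 and Ogn 2-fold lower, beside 7.52% and 5.74% of 8902 genes. The corresponding LysM-DKO median was 0.05 (-0.06 to 0.18), with Col8a1 2-fold higher and Efemp1 2-fold lower, beside 3.96% and 3.77% of 9022 genes. Over all genes these diet medians were 0.16 and 0.18, and with median-ratio scaling, which takes that shift out, the matrix medians were 0.42 and -0.13. For Col12a1 and Postn in WT the ratios were -0.41 and -0.35 without barcodes that met the threshold of more than 1 class. This leaves out most fibroblast barcodes, since 80.1, 80.7, 85.9 and 78.2% of them held at least 2 Lum UMIs. Fibroblast barcodes under the smooth muscle threshold gave 0.51, -0.29, 0.51 and -0.08 for the 4 comparisons in the same sequence. Markers of modulated cells summed to 1040.1, 1475, 14184 and 2097 CPM in fibroblast barcodes, 6 of 6 detected in each library, so the WT/ApoE-/- fibroblast sum again held the most of them; their part was not tested.

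**Figure D4:**
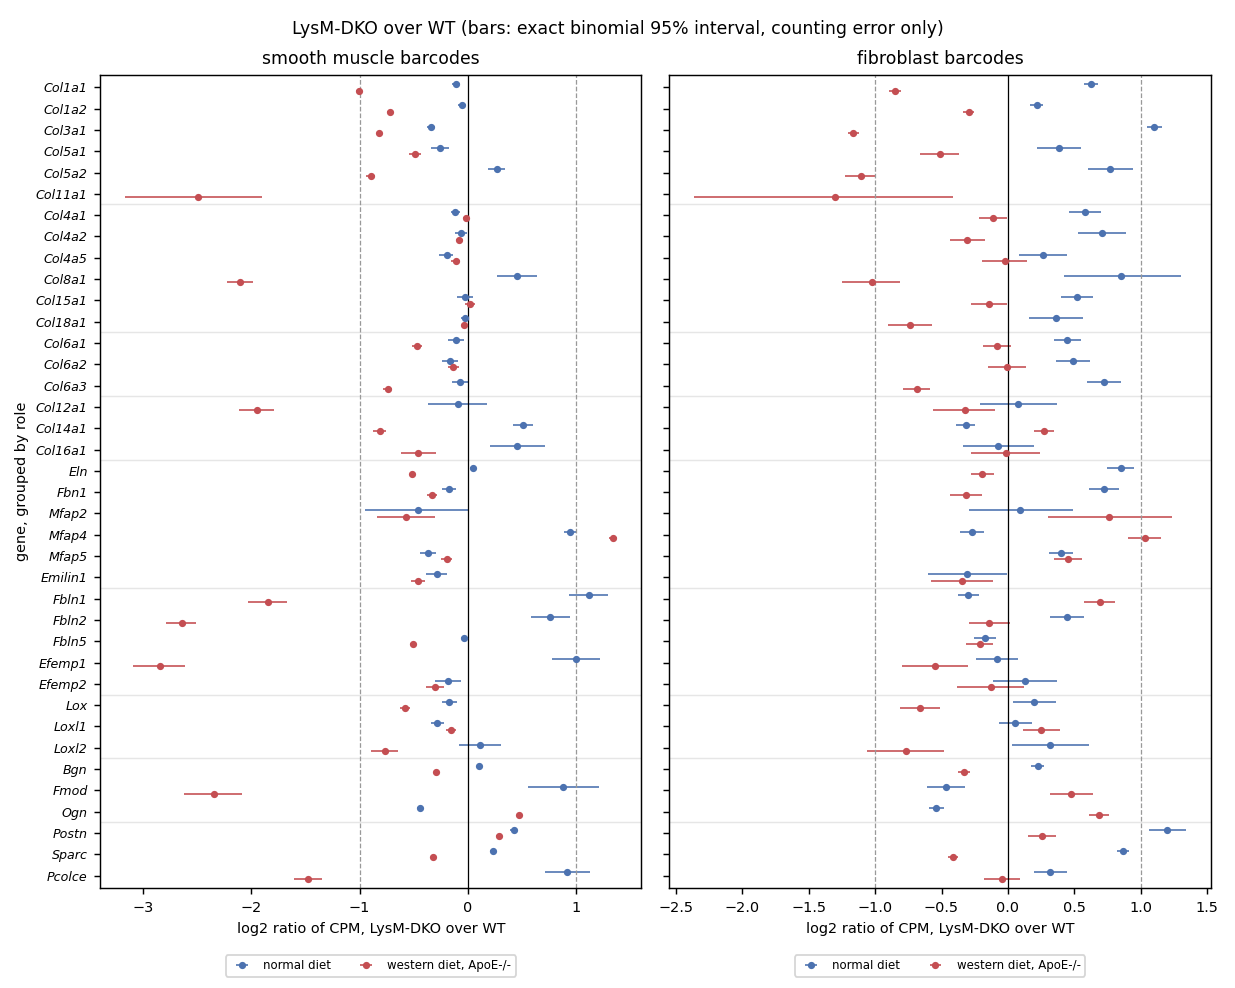
Log2 ratio of CPM, LysM-DKO over WT, for each of the 38 genes with at least 50 UMIs, in smooth muscle (left) and fibroblast (right) barcodes, on normal diet (blue) and on western diet with ApoE-/- (red), with exact binomial 95% intervals and dashed lines at 2-fold. In smooth muscle the red points lie left of 0 for 34 of 38 genes, and Mfap4 lies right of 0 on both diets (0.94 and 1.34).

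All 6 fibrillar collagen genes were highest in WT/ApoE-/- among the smooth muscle sums, though Col11a1 was not above the lymphocyte reference in any library there. Col1a1 and Col1a2, the chains of collagen I, the main fibril of the wall, were at 553, 512, 1159 and 577 CPM and 566, 546, 1183 and 716 CPM in smooth muscle barcodes. WT/ApoE-/- was thus high and the other 3 libraries close together. Their western over normal ratios in WT were 1.07 (1.04 to 1.09) and 1.06 (1.04 to 1.09), and in LysM-DKO 0.17 (0.14 to 0.20) and 0.39 (0.36 to 0.42). Col3a1, which encodes collagen III, a partner of collagen I in distensible tissue, was at 638, 505, 1759 and 997 CPM, so that both western diet libraries were above both normal diet ones. Its LysM-DKO over WT ratio was -0.34 (-0.37 to -0.30) on normal and -0.82 (-0.84 to -0.80) on western diet. In fibroblast barcodes Col3a1 was at 1284, 2756, 5733 and 2559.6 CPM, lowest in WT on normal diet and highest in WT/ApoE-/-. The LysM-DKO over WT ratio there was 1.10 (1.05 to 1.16) under normal diet but -1.16 (-1.21 to -1.12) under western diet. Collagen V starts collagen I fibrils and limits their width, and its chain gene Col5a2 was at 97.5, 117, 290.4 and 156 CPM in smooth muscle and 157, 267, 714 and 331 CPM in fibroblast barcodes. Its other chain gene, Col5a1, was at 109, 91.5, 176 and 125 CPM and 181, 236, 353 and 247 CPM in the same classes. For both, WT/ApoE-/- was the highest library in each class.

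Collagen XI is the cartilage relative of collagen V, and its gene Col11a1 had most of its UMIs in the Cytl1/Col2a1/Ibsp class of the western diet libraries. It was at 0, 14.9, 430.4 and 354 CPM there, where the first value is 0 UMIs in 65 barcodes, which allows up to 7.83 CPM. The other libraries held 9, 2310 and 666 UMIs of it in this class. Smooth muscle barcodes held 0.111, 1.21, 3.35 and 0.587 CPM, of which the first is 3 UMIs. Col1a1 in the same class was at 971, 1323, 10542 and 11080.2 CPM and Col1a2 at 1125, 1366, 7961 and 8558 CPM, both high in the western diet libraries only. Within those libraries Col1a1 was 3.19 and 4.26 log2 units above smooth muscle. Between genotypes on western diet the ratios in this class were 0.07 (0.05 to 0.09) for Col1a1 and 0.10 (0.08 to 0.13) for Col1a2. The class was made up differently in the 2 libraries: 64.7% against 39.4% of its barcodes also met the smooth muscle threshold, and 9.31% against 57.3% the fibroblast threshold. In its barcodes under the smooth muscle threshold the 6 fibrillar collagen genes gave 3.10% of UMIs in WT/ApoE-/- and 2.78% in LysM-DKO/ApoE-/-, the other order from the 2.38% and 2.39% of the whole class.

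Collagen IV and collagen XVIII genes were higher on western diet in smooth muscle barcodes of both genotypes, and differed little between genotypes. Col4a1 and Col4a2, the chains of the common collagen IV network, were at 382, 352, 584 and 577 CPM and 228, 218, 431 and 408 CPM in smooth muscle barcodes. Both western diet libraries were above both normal diet libraries, with ratios of 0.61 (0.58 to 0.65) and 0.92 (0.87 to 0.96) in WT. In LysM-DKO the ratios were 0.71 (0.68 to 0.75) and 0.90 (0.86 to 0.95). These are the genes whose windows overlap above. Barcodes with under 2 Lum UMIs gave 0.61 (0.57 to 0.64) and 0.89 (0.85 to 0.94) in WT, close to the values over all smooth muscle barcodes. Col18a1, the gene of a basement membrane collagen that also carries sugar chains, was at 552, 542, 852 and 833 CPM, and Col4a5, of another collagen IV network, at 171, 149, 254 and 235 CPM. The genotype ratios of Col18a1 were -0.03 (-0.06 to 0.01) and -0.03 (-0.06 to -0.01) on the 2 diets. Col15a1, a close relative of Col18a1, was at 124, 121, 179.6 and 182 CPM, also without a gap between genotypes. Col8a1, which encodes a short network collagen of vessels, had another pattern, with 17.1, 23.4, 68.1 and 15.8 CPM in smooth muscle and 23.4, 42.4, 205 and 100.5 CPM in fibroblast barcodes. WT/ApoE-/- was highest in both, and the LysM-DKO over WT ratio in smooth muscle was 0.45 (0.27 to 0.63) on normal and -2.11 (-2.23 to -1.99) on western diet.

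Collagen VI forms beaded filaments around cells, from chains of Col6a1, Col6a2 and Col6a3. In smooth muscle barcodes Col6a1 was at 131, 121, 237 and 171 CPM, Col6a2 at 126, 113, 152 and 139 CPM and Col6a3 at 114, 108, 295 and 177 CPM. The chains did not differ alike: western over normal in WT was 1.38 (1.32 to 1.44) for Col6a3 and 0.27 (0.21 to 0.33) for Col6a2. Fibroblast barcodes held Col6a3 at 263, 435, 783 and 486 CPM and Col6a1 at 436, 595, 561 and 529 CPM. The fibril-associated collagens sit on the surface of collagen I fibrils. Col14a1 was mainly in fibroblast barcodes, at 1145, 918, 959 and 1157 CPM, at a similar level in each library, beside 63.8, 90.8, 157 and 89.4 CPM in smooth muscle. Col12a1 was at 9.74, 9.13, 34.9 and 9.03 CPM in smooth muscle, where WT/ApoE-/- alone stood out, and at 63.9, 67.4, 132 and 105 CPM in fibroblast barcodes. Col16a1 was at 8.93, 12.3, 18.9 and 13.7 CPM in smooth muscle and at 77.7, 73.9, 94.04 and 92.9 CPM in fibroblasts, with no library standing apart in the latter.

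Of the 6 elastin and microfibril genes, 5 were lower in LysM-DKO/ApoE-/- than in WT/ApoE-/- smooth muscle barcodes, none of them by 2-fold, with a median of -0.40. Eln, the gene of elastin, was at 1005, 1038, 1497 and 1047 CPM in smooth muscle barcodes, so only WT/ApoE-/- stood apart. Its ratios were 0.05 (0.02 to 0.07) for LysM-DKO over WT under normal diet and -0.52 (-0.53 to -0.50) under western diet. In fibroblasts Eln was at 416, 749, 873 and 764 CPM, lowest in WT on normal diet. Fbn1, which encodes fibrillin-1, the backbone of the microfibril, was at 150.0, 133, 210.4 and 167 CPM in smooth muscle and 345, 570.4, 463 and 372 CPM in fibroblast barcodes. Emilin1, of a protein at the interface of elastin and microfibrils, was at 76.4, 62.6, 105 and 76.5 CPM in smooth muscle. Mfap2 was near the floor there, at 3.78, 2.73, 7.07 and 4.76 CPM, and at 35.7, 38.1, 23.2 and 39.3 CPM in fibroblasts. Mfap5, of a microfibril-associated glycoprotein like Mfap2, was at 129.9, 101, 174 and 152 CPM and 597, 785, 481 and 657 CPM in these classes.

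Mfap4, whose protein binds elastin and collagen, was higher in LysM-DKO than in WT smooth muscle barcodes on both diets, and no other of the 38 genes was that far above 0 on both. It was at 154, 296, 229 and 578 CPM, so the LysM-DKO library was the higher on each diet. The ratios were 0.94 (0.88 to 0.995) and 1.34 (1.30 to 1.38), and among barcodes with under 2 Lum UMIs 0.95 (0.90 to 1.01) and 1.24 (1.20 to 1.29). In fibroblasts Mfap4 was at 707, 586, 283 and 578 CPM, with WT/ApoE-/- low. Its genotype ratio on normal diet was -0.27 (-0.36 to -0.18), and with ApoE loss on western diet 1.03 (0.90 to 1.15). In the Lum class on western diet it was 1.59 (1.19 to 1.97), and in Cytl1/Col2a1/Ibsp barcodes 1.11 (0.92 to 1.30). The lymphocyte reference held 39.6, 81.4, 12.9 and 48.9 CPM, below smooth muscle in each library.

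**Figure D5:**
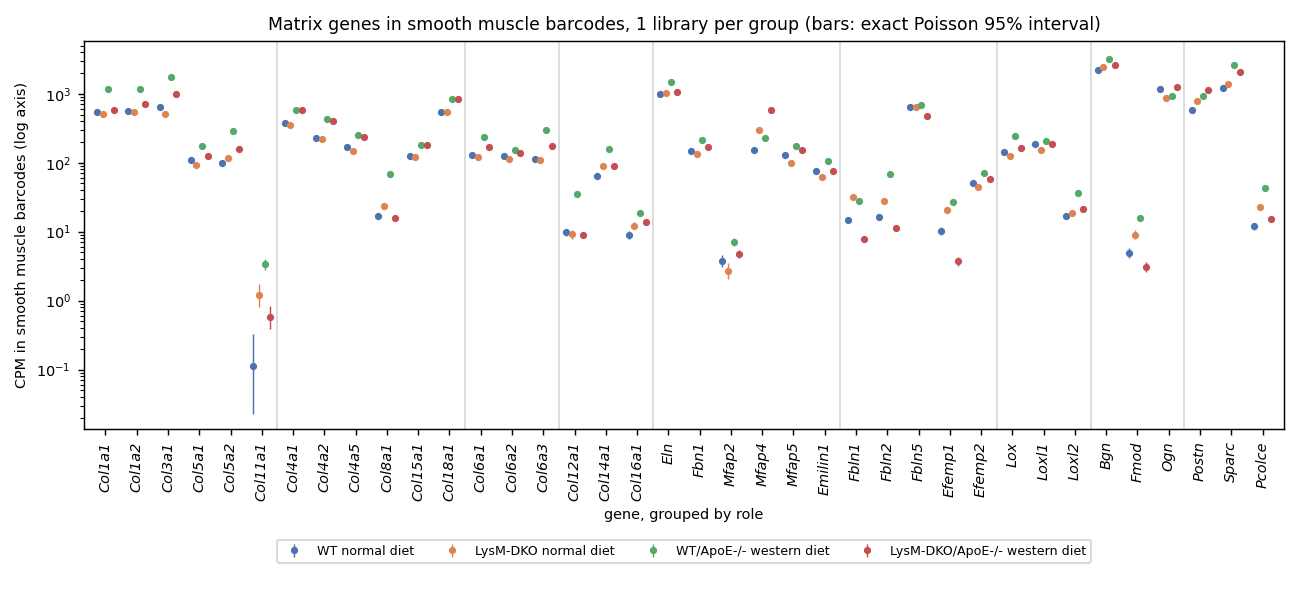
Level of the 38 genes in smooth muscle barcodes of each library, in CPM on a log axis, grouped by role, with exact Poisson 95% intervals. Green points (WT/ApoE-/- on western diet) lie highest for most genes, with Mfap4 (154, 296, 229 and 578 CPM) and Postn (586, 786, 933 and 1136 CPM) highest in LysM-DKO/ApoE-/-.

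Fibulins link elastin to microfibrils and to cells. Fbln5, needed for elastic fibre assembly, was at 649.9, 634, 679 and 477 CPM in smooth muscle barcodes and 819.7, 726, 629 and 542 CPM in fibroblasts, lowest in LysM-DKO/ApoE-/- in both. Efemp2, of fibulin-4, which brings lysyl oxidase to elastin, was at 50.9, 44.8, 70.99 and 57.6 CPM in smooth muscle. Fbln1, Fbln2 and Efemp1 had much lower levels in smooth muscle than in fibroblast barcodes. Fbln1 was at 929, 756, 369 and 595 CPM in fibroblasts and 14.8, 32.03, 27.9 and 7.75 CPM in smooth muscle. LysM-DKO over WT it was 1.11 (0.94 to 1.30) on normal and -1.85 (-2.03 to -1.67) on western diet in smooth muscle. Fbln2 was at 16.3, 27.6, 69.8 and 11.1 CPM in smooth muscle, and its western diet ratio was -2.64 (-2.79 to -2.51). Efemp1, of fibulin-3, was at 10.3, 20.5, 26.7 and 3.71 CPM, with -2.84 (-3.09 to -2.61). All 3 were lower in LysM-DKO/ApoE-/- also among barcodes with under 2 Lum UMIs, at -1.31 (-1.54 to -1.08), -1.60 (-1.79 to -1.41) and -1.32 (-1.64 to -1.01). In those barcodes the 6 fibroblast markers summed to 677, 880.2, 743 and 542 CPM, none at 0, and their part was not tested.

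Lysyl oxidases cross-link collagen and elastin outside the cell. Lox was at 142, 126, 243 and 163 CPM in smooth muscle and 196, 225, 356 and 225 CPM in fibroblast barcodes, highest in WT/ApoE-/- in both. Loxl1, linked to elastic fibre upkeep, was at 188, 155, 205 and 184 CPM, with the libraries close together. Loxl2 was at 17.04, 18.4, 35.8 and 21.02 CPM in smooth muscle barcodes. In the Cytl1/Col2a1/Ibsp class Lox reached 499 and 509.7 CPM on western diet, from 151 and 134 CPM on normal diet.

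The 3 small proteoglycans had different patterns. Bgn, the gene of biglycan, was at 2246, 2411, 3232 and 2631 CPM in smooth muscle, 2326, 2715, 3751 and 2982 CPM in fibroblast and 3675, 3917, 4038 and 4197 CPM in Cytl1/Col2a1/Ibsp barcodes. It was the most even of the 3 across classes. Ogn, which encodes osteoglycin, was at 1188, 873, 917 and 1275 CPM in smooth muscle barcodes, and its genotype ratio was -0.44 (-0.47 to -0.42) on normal and 0.48 (0.46 to 0.50) on western diet. It was the only one of the 38 genes below 0 for western over normal diet in WT smooth muscle, at -0.37 (-0.40 to -0.35). Fibroblasts held Ogn at 1908, 1312, 829 and 1334 CPM, again lowest in WT/ApoE-/-. Fmod, of fibromodulin, a collagen-binding proteoglycan of tendon and cartilage, was at 310.0, 224, 206 and 287 CPM in fibroblast barcodes. It was at 67.9, 131, 545 and 518 CPM in the Cytl1/Col2a1/Ibsp class and at 4.93, 9.08, 15.9 and 3.12 CPM in smooth muscle, where it was above the lymphocyte reference in WT/ApoE-/- alone.

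Of the proteins that bind or process collagen, Sparc had the most UMIs of the 38 genes in the Cytl1/Col2a1/Ibsp class on western diet. Sparc encodes osteonectin, a collagen-binding protein of bone and remodelling tissue, and was at 1582, 3029, 19444 and 18160.3 CPM there. It was at 1202, 1408, 2593 and 2075 CPM in smooth muscle and 1975, 3605, 5731 and 4301 CPM in fibroblast barcodes, with both western diet libraries above the normal diet ones. Postn, the gene of periostin, was higher in smooth muscle barcodes than in any other class in all 4 libraries, at 586, 786, 933 and 1136 CPM. LysM-DKO was above WT on each diet, by 0.42 (0.39 to 0.45) and 0.28 (0.26 to 0.30). In fibroblasts Postn was at 207, 475, 512 and 611 CPM, lowest in WT on normal diet. Pcolce, whose protein enhances the cutting of procollagen, was at 11.97, 22.6, 43.02 and 15.4 CPM in smooth muscle and 315, 393, 357 and 346 CPM in fibroblast barcodes. It shares its strand with the overlapping gene Fbxo24, and counts of genes that overlap on a strand are uncertain. Mfap4, Ogn, Efemp2 and Col18a1 overlap Mapk7, Cenpp, Mus81 and Slc19a1 on the other strand, and the use of strand in counting is not given in the sources used here.

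Within the Lum class of the western diet libraries the genotype difference ran the other way from smooth muscle. The median over 36 genes was 0.63 (0.31 to 0.94), with 10 at least 2-fold higher in LysM-DKO/ApoE-/- (Col1a1, Col1a2, Col6a1, Col6a2, Col12a1, Col14a1, Col16a1, Fbln1, Mfap4 and Fmod) and Loxl2 lower, beside 6.27% and 6.67% of 6447 genes. Col1a1 was at 3500.2 CPM in WT/ApoE-/- and 8890.2 CPM in LysM-DKO/ApoE-/-, and Fbln1 at 78.8 and 459 CPM. The LysM-DKO/ApoE-/- sum rests on 76 barcodes against 1046, and with equal weight for each barcode the median was 0.22. Over all genes the median was 0.12, and with median-ratio scaling the matrix median was 0.51. Chondrocyte markers summed to 259.5 and 1095 CPM in these, with 0 and 3 of 6 at 0. Fibroblast markers summed to 8171 and 13808 CPM, and markers of modulated cells to 21937 and 9158 CPM, none at 0. The part of these markers in the difference was not tested.

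For each of the 9 roles the gene with the most UMIs over the 6 classes is followed here through the classes not given above, which are the Pecam1/Cdh5, Lum and macrophage barcodes in that sequence. Col1a1 was at 607, 616, 2232 and 1353 CPM in Pecam1/Cdh5 barcodes, 726, 1141, 3500.2 and 8890.2 CPM in the Lum class and 90.1, 127, 937 and 184 CPM in macrophage barcodes, and at 1615, 2488, 4934 and 2736 CPM in fibroblasts. Of these 4 classes, the Lum class alone was higher in LysM-DKO/ApoE-/- than in WT/ApoE-/-. Eln was at 929, 1031, 1867 and 1635 CPM, 448, 656, 1063 and 1056 CPM and 178, 262, 511 and 248 CPM in the same 3 classes and at 527, 1319, 1017 and 977 CPM in the Cytl1/Col2a1/Ibsp class. Macrophage barcodes were thus lowest for both. Col18a1 was at 522, 447, 591 and 611 CPM, 100.4, 120.0, 305 and 207 CPM and 126, 137, 230.4 and 142 CPM. It was at 136, 192, 426 and 246 CPM in the Cytl1/Col2a1/Ibsp class and 117, 149.8, 316 and 189.6 CPM in fibroblasts. In each of these 5 classes every library was below its smooth muscle level. Col6a3 was at 112, 119, 542 and 288 CPM, 169.9, 324, 779 and 1416 CPM and 39.8, 26.3, 147 and 61.3 CPM, and at 264, 261, 898 and 1237 CPM in the Cytl1/Col2a1/Ibsp class. Col14a1 was at 99.9, 149, 217 and 163 CPM, 718, 602, 298 and 616 CPM and 115, 67.2, 179 and 85.5 CPM, and at 329, 336, 177 and 301 CPM in the Cytl1/Col2a1/Ibsp class. Unlike Col6a3, it was highest in fibroblasts in all 4 libraries. Fbln5 was at 692, 747, 907 and 792 CPM, 463, 472, 652 and 643 CPM and 155, 167, 235 and 229 CPM, and at 804, 1000.2, 599 and 909.9 CPM in the Cytl1/Col2a1/Ibsp class. Lox was at 143, 133, 310.0 and 226 CPM, 124, 133, 317 and 406 CPM and 48.2, 39.97, 87.95 and 55.6 CPM. Its macrophage level was below that of every wall class in each library. Bgn was at 2346, 2551, 3755 and 3210.4 CPM, 1792, 2438, 3498 and 3494 CPM and 557, 696, 1116 and 657 CPM, the wall classes being above macrophage barcodes in each library. Sparc was at 1385, 1881, 4510.2 and 3406 CPM, 1004, 1748, 4692 and 8071 CPM and 188, 294, 1385 and 549 CPM. Sparc in macrophage barcodes was highest in WT/ApoE-/-.

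Chains of one collagen did not keep one ratio over the classes. UMIs of Col1a1 per UMI of Col1a2 were 0.977, 0.937, 0.980 and 0.805 in smooth muscle barcodes, 0.774, 1.03, 1.16 and 0.791 in fibroblasts, 0.863, 0.969, 1.32 and 1.29 in the Cytl1/Col2a1/Ibsp class and 0.8, 0.943, 1.25 and 1.46 in the Lum class. Both western diet libraries were above 1 in the latter classes, and WT on normal diet was below it. The counting intervals of LysM-DKO on normal diet held 1 in both, at 0.878 to 1.07 and 0.827 to 1.08. Col4a1 per Col4a2 was 1.67, 1.61, 1.36 and 1.41 in smooth muscle, lower on western diet in both genotypes. Col5a1 per Col5a2 was 1.12, 0.779, 0.605 and 0.804 in smooth muscle and 1.14, 0.614, 0.309 and 0.394 in the Cytl1/Col2a1/Ibsp class. Col6a1 per Col6a2 was 1.03, 1.07, 1.56 and 1.23 in smooth muscle and 1.48, 1.44, 1.87 and 1.78 in fibroblasts. The ratio of a pair also holds how well each RNA is captured at its 3' end, so it is read across classes and libraries and not as a chain ratio of protein.

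Other matrix genes from 2 lists were read beside these. Of the 15 genes of collagen folding, modification and secretion, none was 2-fold higher or lower in smooth muscle barcodes in any of the 4 comparisons. Their medians were 0.03 and -0.06 for LysM-DKO over WT on normal and western diet, and 0.42 and 0.33 for western over normal diet in WT and LysM-DKO. All 15 were above 0 in WT and 12 in LysM-DKO in the diet comparison. Of 35 further matrix genes, 31 had enough UMIs in smooth muscle barcodes. On western diet 9 of those were 2-fold lower in LysM-DKO/ApoE-/-, led by Dcn, the proteoglycan decorin, which is also 1 of the fibroblast markers (153, 344, 1198 and 101 CPM), Emilin2 (2.41, 5.73, 2.48 and 0.210 CPM) and Thbs1, thrombospondin-1 (79.4, 103, 270.3 and 37.8 CPM). On normal diet 5 were 2-fold higher in LysM-DKO, led by Col5a3 (2.001, 7.96, 2.70 and 0.985 CPM), Lamb1 (1.70, 6.04, 3.60 and 0.922 CPM) and Emilin2. In WT 8 were 2-fold higher on western diet, led by Dcn, Podn (2.37, 5.41, 15.2 and 4.51 CPM) and Ltbp2 (28.1, 32.3, 136 and 60.3 CPM), and in LysM-DKO 2 were, Fn1, fibronectin (927, 977, 3106 and 2349 CPM), and Vcan, versican (119, 136, 217 and 294 CPM). There 6 were 2-fold lower, led by Emilin2, Col5a3 and Lamb1. Of all genes, 7.55% were 2-fold lower in LysM-DKO/ApoE-/- on western diet and 5.00% higher in LysM-DKO on normal diet. Western over normal diet, 4.59% were higher in WT, and 3.32% were higher and 16.1% lower in LysM-DKO. The 6 lower genes are thus not read as particular to matrix genes. These further genes were not set against the lymphocyte reference, and several of them were at a few CPM. In fibroblast barcodes Fn1 (452, 860.4, 5587 and 2806 CPM), Tnc, tenascin-C (21.2, 27.3, 222 and 87.9 CPM), and Ltbp2 (63.2, 82.2, 434 and 221 CPM) had the largest western over normal ratios in both genotypes, and each was highest in WT/ApoE-/-.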

How the data were processed

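Aortas were perfused and digested with collagenases and liberase, and their cells were run on the 10x Genomics 3' v3.1 chemistry, per the labels' protocols. The authors deposited 1 matrix of raw UMI counts per gene and barcode for each library, with 13831, 15826, 29724 and 11414 barcodes, made with Cell Ranger 6.0.1 (normal diet) and 6.1.2 (western diet) per the file headers. The submitters' processing notes also name Cell Ranger 6.1.2, Seurat 4.1.0 and the mouse build mm10. The settings for calling cells and for strand are not given in the sources used here. Kept were barcodes of 1000 UMIs or more, with mitochondrial UMIs at 10% or less, giving 40746006, 37789023, 53423800 and 56888546 UMIs. They were classed by the thresholds in the report, and UMIs were summed per library and class and divided by the class total to give CPM. Because there was 1 library per group, no test was run. Log2 ratios had 0.5 UMI added to each sum, with exact binomial 95% intervals, and levels had exact Poisson intervals. PCR and barcode capture add error that these intervals do not cover. A ratio needed 50 UMIs over both sums, and 2-fold was the limit for counting a gene, for the 38 genes as for all genes. Scripts ran under Python 3.11.15 with numpy 2.4.6, scipy 1.17.1, pandas 2.3.3 and scanpy 1.11.5, and the ratio and its interval were tested on simulated data. Scrublet's automatic threshold marked at most 0.0101% of a library and was not used, so doublets were kept, and removing the highest scores was tried as an alternative. All 38 genes are accounted for. In a comparison the genes past 2-fold are named, and of the other matrix genes the 3 largest in each direction. The members, gene lists, classes and thresholds were chosen with earlier results of these data known. The alternatives were 2000 UMIs, 5% mitochondrial UMIs, 20 or 200 UMIs per gene, barcodes of more than 1 class left out, thinning to 1000 UMIs, median-ratio scaling and equal weight per barcode. Leaving out smooth muscle barcodes with Lum, and fibroblast barcodes over the smooth muscle threshold, was added after seeing the data. Of 32285 features 99.8% matched the GENCODE M21 annotation.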

Additional observations from a re-analysis of the deposited data

Results flagged for a closer look

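In smooth muscle barcodes 6 of the 38 genes had a LysM-DKO over WT ratio above 0 on normal diet and below 0 on western diet with ApoE loss, with at least 2-fold on 1 of the diets and both intervals clear of 0. Each group was 1 library, so the difference between the diets was not tested. The share of all genes that met this rule is not given here, so the 6 are not read as particular to the matrix genes. Of all genes, 5.00% were at least 2-fold higher and 0.662% lower on normal diet, and 1.26% higher and 7.55% lower on western diet. Efemp1 was at 0.996 and -2.84 on the log2 scale, Fbln2 at 0.76 and -2.64, and Fmod at 0.88 and -2.35. Col8a1 was at 0.45 and -2.11, Fbln1 at 1.11 and -1.85, and Pcolce at 0.92 and -1.48. All 6 are higher in smooth muscle barcodes with at least 2 Lum UMIs, and that share was 39.1% in WT/ApoE-/- and 2.13 to 2.997% in the other libraries. None of the 6 was above the lymphocyte reference in LysM-DKO/ApoE-/- smooth muscle, and Fmod was not in either normal diet library, so these ratios rest on low levels. Among barcodes with under 2 Lum UMIs the western diet ratios were -1.32 for Efemp1, -1.60 for Fbln2, -1.997 for Fmod, -1.36 for Col8a1, -1.31 for Fbln1 and -0.79 for Pcolce. In fibroblast barcodes the median ratio over the measured genes was 0.32 on normal diet and -0.20 on western diet. Among single genes there, Col3a1 was at 1.10 and -1.16, Col5a2 at 0.77 and -1.11, and Col8a1 at 0.85 and -1.03. Mfap4 was the reverse, at -0.27 on normal and 1.03 on western diet. None of these fibroblast differences was tested.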

How the results depend on the processing

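No paired analysis was possible because each group was 1 library and no test was run. Leaving out a replicate could not be done for the same reason. The original log2 values between groups are medians over the 36 to 38 genes measured. Those of 1 class over another are the mean of such medians over the 4 libraries or the 2 on western diet. The UMI limit per gene was applied anew to the sums of each alternative, except for equal weight per barcode. A median under an alternative can thus rest on other genes than the original, most of all after thinning. Thinning each barcode to 1000 UMIs and classing it anew moved LysM-DKO over WT on normal diet in smooth muscle from -0.05 to 0.0930, and western over normal diet there from 0.88 to 0.63 in WT and from 0.34 to -0.0378 in LysM-DKO. In fibroblasts it moved western over normal diet in LysM-DKO from 0.05 to -0.35. It gave 1.11 in place of 1.33 for fibroblast over smooth muscle, -0.52 in place of 0.39 for Pecam1/Cdh5 barcodes and 1.04 in place of 1.34 for the Lum class over smooth muscle. Leaving out barcodes of more than 1 class moved western diet LysM-DKO over WT from -0.50 to -0.23 in smooth muscle and from -0.20 to -0.42 in fibroblasts, and western over normal diet to 0.56 in WT smooth muscle and -0.13 in LysM-DKO fibroblasts. It gave 1.04 for fibroblast, -1.12 for Pecam1/Cdh5, 1.53 for Lum and 0.70 for Cytl1/Col2a1/Ibsp barcodes (0.99 before) over smooth muscle, and 0.47 in place of -0.08 for Lum over fibroblast. For smooth muscle contrasts the limit of under 2 Lum UMIs is the same filter (-0.23 and 0.56), and it gave 1.44, 0.50, 1.53 and 1.47 for fibroblast, Pecam1/Cdh5, Lum and Cytl1/Col2a1/Ibsp barcodes over it. At most 5% mitochondrial UMIs gave 1.05 and 0.58 for western over normal diet in WT and LysM-DKO smooth muscle and 0.82 for Cytl1/Col2a1/Ibsp over smooth muscle. Equal weight per barcode gave 0.95 for WT western over normal diet in smooth muscle and 0.22 in place of 0.63 for LysM-DKO over WT in the Lum class. Barcodes of at least 2000 UMIs gave 1.51 for Lum over smooth muscle. Median-ratio scaling gave -0.13 for western over normal diet in LysM-DKO fibroblasts. Fibroblasts under the smooth muscle threshold gave 0.51 in place of 0.32 for LysM-DKO over WT on normal diet and -0.0785 for western over normal diet in LysM-DKO. Of single genes in fibroblasts, western over normal diet in WT was -0.41 (more than 1 class left out) and -0.13 (thinned) for Col12a1 in place of 1.05, and -0.35 (more than 1 class left out) for Postn in place of 1.31. In LysM-DKO it was -0.74 (thinned) for Col8a1 in place of 1.24. The thinned fibroblast sums held 243000, 264000, 185000 and 229000 UMIs of all genes, so thinned values of single genes can rest on few UMIs. No counting interval is given for them. In WT smooth muscle the genes 2-fold higher on western diet went from 16 to 3 without barcodes of more than 1 class. In WT fibroblasts 12 became 5 after thinning, and the LysM-DKO over WT count on normal diet went from 2 to 7 without barcodes of more than 1 class. The cause was not tested. For the medians, 88 alternatives gave a value within the bounds of the original and 28 a value outside them. A further 3 turned the sign of a median whose bounds were clear of 0. For a median these bounds are medians of the limits of single genes, averaged over libraries for 1 class over another. They are not an interval for the median. Medians with 0 between their bounds also changed sign above. For the shares of UMIs and single genes together the numbers were 284, 277 and 4.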
